A study of Mus musculus with 18 samples.

Results

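Transcript levels in the ventricular myocardium of leptin-deficient ob/ob mice were compared between animals whose food intake was lowered by either of 2 routes and animals left to eat freely. The comparison used 14 of the 18 arrays of the series, 1 array per sample. They came from ob/ob mice on a C57Bl/6J background, all without functional leptin, which were aged to 6 months and then kept for 1 further month under 1 of 3 regimens. In the ad libitum group (n = 4) free feeding went on. In the calorie restricted group (n = 5) food was limited to what the leptin group ate, without the hormone. In the leptin group (n = 5) leptin was given from osmotic mini-pumps. The members of the comparison were the genes whose mean change over both treated groups, each group weighted equally, passed the test against the ad libitum group with the same sign in each treated group. The other 4 arrays, from C57Bl/6J wild type mice labelled 6 months old (the series' design text gives 6 to 8 months), are given for reference. All mice were killed between 7 and 8 AM, so every value is a snapshot at a single time of day. Nothing in the labels ties an array to a cage, cohort or extraction, so the p-values reflect the variation among arrays, which may be technical.

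Leptin is a hormone of fat tissue that acts on the brain to curb appetite, and a mouse without it overeats and becomes obese. Heart muscle takes most of its energy from fatty acids and adjusts the genes of fuel use to feeding, fasting and fat supply, largely through the nuclear receptor PPAR-alpha and its coactivator PGC-1alpha. It also holds a circadian clock, in which the activators ARNTL (BMAL1) and CLOCK switch on genes such as the Per and REV-ERB repressors, which in turn shut the activators down, while output factors such as DBP, TEF and HLF pass the rhythm on. Feeding time is a strong cue for clocks outside the brain.

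The arrays were alike in quality. The median signal of an array, in the linear MAS5 units that the authors deposited, lay between 22.3 and 31.8, and the trimmed mean was 100.001 on every array. As a check of intact RNA, 3' probes read 0.797 to 0.868 times as high as 5' probes for Gapdh, and 1.13 to 1.41 times for beta-actin. Ventricular markers were high in every group. The summed signal of 10 such genes was 63280 to 73770 on the ad libitum arrays, 66440 to 86080 on the calorie restricted and 56450 to 77300 on the leptin arrays. Calorie restricted arrays 2 and 3 stood apart in atrial markers such as Sln, Myl7 and Nppa. The mean log2 signal of 9 atrial genes was 9.59 and 9.79 there, against 5.87 to 7.75 on the other calorie restricted arrays, 5.56 to 7.51 on the ad libitum arrays and 5.93 to 7.23 on the leptin arrays. Without these arrays, 16 of the 46 calls among the genes named here did not pass (adjusted p 0.0522 to 0.106), with the direction kept: Angpt1, Ccn1, Col4a1, Cys1, Dixdc1, Dnajb4, Egln3, Grb10, Itgb6, Kcna5, Klf10, Mettl11b, Mt1, Otud1, Rtn4r and Tmem150c. Lists whose counts of called genes then change are marked where they are given.

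The mean of both treated groups differed from the ad libitum group in a small set of genes. Of 13359 genes tested, 48 had a higher mean (0.359% of the genes tested) and 52 a lower one (0.389%), 100 in all (0.749%), at a limma adjusted p under 0.05 with the same sign in each treated group. The adjusted p is that of the mean, and of each group only the sign was asked, so a gene could be called mainly through 1 group. On its own against the ad libitum group, calorie restriction passed the test in 87 of the 100 and leptin in 37. In what follows, called, rose and fell refer to the mean of the groups unless 1 group is named. The shares of 0.359% higher and 0.389% lower are those to set beside the counts of called genes in each list below. The log2 change in this text is the mean over the treated groups of log2(signal + 5.13) minus that of the ad libitum group, unless 1 group is named, and its error is the standard error of the fit. The median change of the 48 genes was 0.53, and that of the 52 genes was -0.56. Over all genes tested it was -0.01. At an unadjusted p under 0.05, 841 genes were higher (6.3%) and 814 lower (6.09%). In the comparison of each treated group on its own, which share the 4 ad libitum arrays, 724 genes (5.42%) were called in the calorie restricted group, 2.46% higher and 2.96% lower, and 86 (0.644%) in the leptin group, 0.404% higher and 0.24% lower. In 49 genes (0.367%) each of the 10 treated arrays lay above all 4 ad libitum arrays, and in another 49 (0.367%) each lay below them. Of the called genes, 23 of the 48 and 25 of the 52 were separated in this way. With 1 array fewer the criterion is easier to meet, and 110 to 234 genes met it in either direction, against 98 with all 14.

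The set depended on the 4 ad libitum arrays. Without ad libitum array 4 only 14 genes were called higher and 10 lower, without array 3 the counts were 23 and 15, without array 2 34 and 21, and without array 1 30 and 26. Leaving out a treated array gave 29 to 67 genes higher and 31 to 57 lower, with the lowest counts without leptin array 1 (29 and 31), 2 (31 and 37) or 3 (36 and 33) or calorie restricted array 2 (29 and 37) or 3 (34 and 33). Without calorie restricted arrays 2 and 3, 24 and 35 genes were called, of which 24 and 26 were among the 48 and 52. In 21 of the 100 genes the call held whichever of the 14 arrays was left out. The 12 that rose were Angptl4, Ccbe1, Clec1b, Dbp, Fmo2, Hsd17b11, Inmt, Nr1d2, Tef, Tmem100, Tspan4 and Ucp3. The 9 that fell were Abra, Ak4, Arntl, Bdh1, Col15a1, Col5a3, Epha4, Nuak1 and Serpinh1. When the 10 treated arrays were fitted as 1 group, so that differences between the treatments counted as spread, 15 genes were called. Of these, Ccbe1, Clec1b, Tef, Tmem100 and Tspan4 (higher) and Ak4, Arntl, Col5a3, Epha4 and Nuak1 (lower) were also among the 21.

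**Figure D1:**
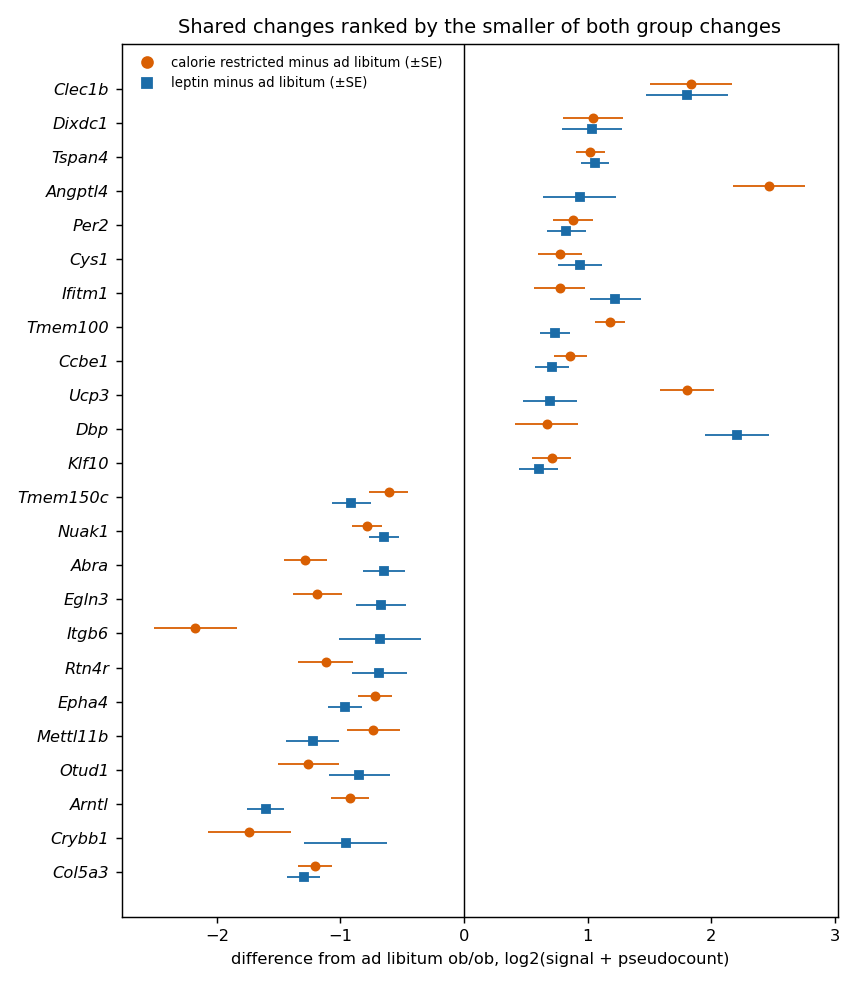
Log2 change from the ad libitum group in the calorie restricted (circles) and leptin (squares) groups, with standard errors, for the 12 genes in each direction with the largest smaller change of the 2 groups. Both points of every gene lie on the same side of 0, which the selection requires, with Clec1b, Dixdc1, Tspan4, Per2 and Col5a3 nearly equal and Angptl4, Ucp3, Dbp, Itgb6 and Arntl further apart between the groups.

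The ranked plot orders genes by the smaller of the changes in the calorie restricted and leptin groups, so that a gene moved by 1 treatment alone ranks low. This smaller change was over 0.5 on the log2 scale in 34 of the 100 genes, 15 higher and 19 lower. At the head of the genes that fell was Col5a3, which encodes a chain of type V collagen (probe set 1419703_at). Its signal was 178, 226, 166 and 172 on the ad libitum arrays, 96.5, 68.7, 67.6, 77.2 and 77 on the calorie restricted arrays and 61.7, 60.4, 88, 74.2 and 78.4 on the leptin arrays. No treated array came near the ad libitum range. The log2 change was -1.25 ± 0.12, a 2.38-fold lower signal (limma adjusted p = 0.000113). The restricted group (-1.21) and the leptin group (-1.30) differed by -0.09, with a 95% interval of -0.36 to 0.18. The wild type arrays, given for reference, read 75.5, 111, 89.5 and 96.2.

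Tspan4 encodes a tetraspanin, a membrane-spanning protein of the cell surface (probe set 1448276_at). It gave 118, 115, 108 and 83.3 on the ad libitum arrays, 223, 239.9, 199, 201 and 237 on the calorie restricted arrays and 262, 211, 202, 213 and 242 on the leptin arrays. All 10 treated values were well above the 4 ad libitum values. The signal rose 2.06-fold, a log2 change of 1.04 ± 0.10 (adjusted p = 0.000113). The change was 1.02 with calorie restriction and 1.06 with leptin, and the interval of their difference ran from -0.20 to 0.27. Wild type mice had a mean of 177 ± 22.1 (SD, n = 4).

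Epha4, an ephrin receptor tyrosine kinase, and Nuak1, a kinase related to AMPK, fell without overlap between fed and treated arrays. Epha4 read 224, 246, 196 and 202 with free feeding, 133, 119, 168, 125 and 106 with calorie restriction and 92.2, 97.6, 105, 122 and 129 with leptin. Nuak1 read 405, 397, 486 and 543 with free feeding, 221, 283, 287, 306 and 219 with calorie restriction and 291, 293, 296, 284 and 277 with leptin. The 5 leptin values of Nuak1 lay within a narrow band below every ad libitum value. Epha4 fell by 0.84 ± 0.12 (adjusted p = 0.00429) and Nuak1 by 0.72 ± 0.11 (adjusted p = 0.00505). The other 3 probe sets of Epha4 also had negative changes, from -0.44 to -0.80, and were not called.

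Tmem100 and Ccbe1 are genes of blood and lymphatic vessels. Tmem100 encodes an endothelial membrane protein that responds to bone morphogenetic protein signals, and Ccbe1 a secreted protein needed to process the lymphatic growth factor VEGF-C. Tmem100 signal was 118, 121, 94.5 and 103 on the ad libitum arrays, 213, 254, 248, 286 and 266 on the calorie restricted arrays and 166, 187, 190.3, 203 and 174 on the leptin arrays. Ccbe1 signal was 92, 91.2, 54 and 87.9, 142, 149, 149, 143 and 158 and 134, 161, 122, 125 and 129.7 in the same order of groups. Neither gene overlapped between fed and treated animals. Tmem100 rose by 0.96 ± 0.11 (adjusted p = 0.000381) and its rise was larger with calorie restriction, by 0.45 (leptin minus restricted -0.45, adjusted p = 0.0166). Ccbe1 rose by 0.78 ± 0.12 (adjusted p = 0.00543), with no difference found between the treatments (interval -0.42 to 0.12). Another probe set of Tmem100 (0.18) and those of Ccbe1 (0.54 and 0.10) gave smaller changes that were not called. The other vessel gene, Angpt1, a ligand of the endothelial receptor TIE2, had 148 ± 45.6 (SD) on the ad libitum arrays, 267 ± 23 on the calorie restricted and 187 ± 11.6 on the leptin arrays. All its leptin values lay within the ad libitum range of 97.5 to 205, and its shared rise of 0.62 (adjusted p = 0.0366) was called in 3 of the 14 fits that left out 1 array, those without ad libitum array 2, calorie restricted array 4 or leptin array 5 (adjusted p otherwise up to 0.144). Angpt1 was the only called member (0 without calorie restricted arrays 2 and 3) of the 26 tested genes of the VEGF, angiopoietin and apelin systems, whose median change was -0.07. Summed signal of 16 endothelial markers was 4636 to 5871 on the ad libitum arrays, 3850 to 4426 on the calorie restricted and 5207 to 6112 on the leptin arrays, and the part of this spread in the results above was not tested. In a piece of whole tissue, fewer cells of a type and less RNA per cell cannot be told apart.

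**Figure D2:**
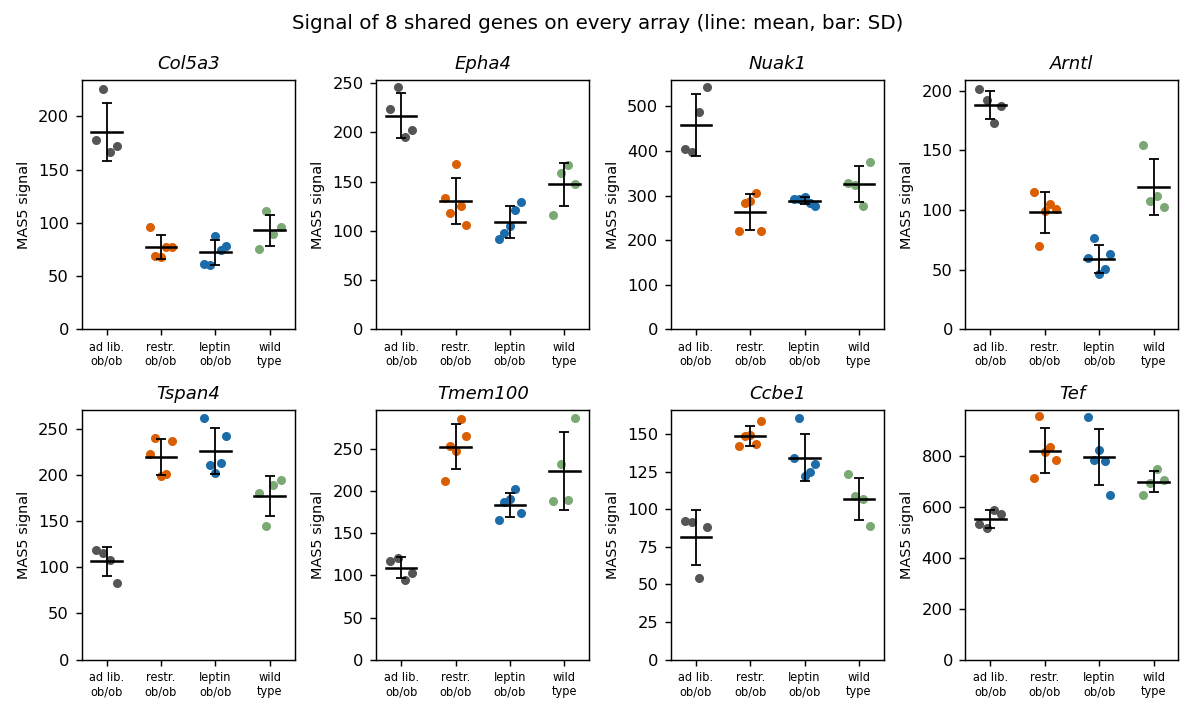
MAS5 signal on each array (points) with group mean (line) and SD (bar) for 8 genes whose call held without any single array, in ad libitum, calorie restricted, leptin and wild type mice. In each panel the 10 treated points lie entirely above or entirely below the 4 ad libitum points.

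Clock genes that passed the test fell among the activators and rose among the repressors and outputs. Of 7 tested activators and regulators of their arm, 1 fell and 0 rose. Of 10 repressors 3 rose and 0 fell, and of 12 output genes 3 rose and 0 fell. Over all genes tested 0.359% rose and 0.389% fell. The median change was -0.35 for the activator list, 0.31 for the repressors and 0.10 for the outputs, beside -0.01 over all genes tested. The activator median was the value of Arntl2, a dim gene that was not called (adjusted p = 0.815). Arntl2 had 25.9 ± 14, 17.3 ± 8.9 and 21.3 ± 18.3 (SD) in the ad libitum, restricted and leptin groups. Of the 7 genes of the activator list, which includes the repressor Nfil3, 2 had a change above 0, Rora (0.09) and Rorb (0.10). The lists were drawn up with earlier results of these data known, Tspan4 and Dbp among them. A shift in the time of the daily cycle and a change in its level cannot be told apart in hearts taken at a single hour.

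Among the activators, Arntl, the partner of CLOCK, was the member called. Its signal (probe set 1425099_a_at) was 202, 192, 173 and 187 on the ad libitum arrays, 115, 69.9, 99, 105 and 101 on the calorie restricted arrays and 60.1, 76.2, 46.4, 50.4 and 62.8 on the leptin arrays. The fed values were the highest, the restricted values lay below them and 4 of the 5 leptin values were lower than any restricted value. Arntl fell by 1.26 ± 0.13 (adjusted p = 0.000208), by 0.92 with calorie restriction (adjusted p = 0.00197) and by 1.61 with leptin (adjusted p = 0.000122). The groups differed by -0.68 (interval -0.99 to -0.38, adjusted p = 0.00472). A weaker probe set of Arntl gave a change of 0.11 and was not called. Npas2, which can stand in for CLOCK, had means of 41.6 ± 11.9, 28.7 ± 8.04 and 13 ± 9.12 (SD) in the ad libitum, restricted and leptin groups, and Nfil3, a repressor at the DBP binding site, had 128 ± 43.6, 77.2 ± 33.2 and 45.3 ± 11.3. Neither passed the test (changes of -0.99 and -1.05, adjusted p = 0.169 and 0.0908). Clock itself had a change of -0.24 (adjusted p = 0.425), and Rora of 0.09 (adjusted p = 0.799).

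Among the repressors, Per2, Per3 and Nr1d2 rose. Per2 signal was 56.2, 39.7, 51.7 and 36.5 on the ad libitum arrays, 85.2, 82, 81.3, 94.6 and 97.5 on the calorie restricted arrays and 87.4, 69.6, 102, 94.6 and 73.2 on the leptin arrays. Nr1d2, which encodes REV-ERB beta, gave 746, 866, 864 and 789.6, 1015, 1032, 964, 1034 and 1108 and 1447, 1304, 1439, 1624 and 1157 in the same order. Both genes were higher on all 10 treated arrays than on any ad libitum array. The rise of Per2 was of like size in both groups, 0.88 with calorie restriction and 0.83 with leptin (mean 0.85 ± 0.14, adjusted p = 0.00794). The rise of Nr1d2 was larger with leptin, 0.76 against 0.34 (difference 0.43, interval 0.23 to 0.62, adjusted p = 0.00593). Per3 rose by 0.61 ± 0.11 (adjusted p = 0.0158), from 36.8 ± 6.7 to 52.4 ± 8.66 with calorie restriction and 65.4 ± 3.96 with leptin, and 9 of the 10 treated arrays lay above all fed ones. Without ad libitum array 4, whose Per3 value of 26.8 was the lowest, the adjusted p was 0.0786 for Per3 and 0.0558 for Per2. Other probe sets of Per2, Per3 and Nr1d2 had changes of 0.01 to 0.78 and were not called. The value of 0.01 was that of a Per3 probe set with opposite signs, -0.35 with calorie restriction and 0.37 with leptin. Of the repressors not called, Bhlhe41 had 19.4 ± 9.25, 31.8 ± 6.99 and 40.1 ± 5.78 (change 0.81, adjusted p = 0.0887) and Ciart 26 ± 15.4, 48.1 ± 15.6 and 86.8 ± 39.4 (change 1.31, adjusted p = 0.242). Per1 (0.07), Cry1 (-0.13), Cry2 (0.07), Nr1d1 (-0.03) and Bhlhe40 (-0.04) had mean changes near 0, each with an adjusted p of at least 0.828. That of Bhlhe40 was made of -0.37 with calorie restriction and 0.30 with leptin. Leptin minus calorie restricted was 0.67 for this gene (limma adjusted p = 0.0105).

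Of the output genes, Dbp, Tef and Tspan4 rose. Dbp encodes a transcription factor whose transcript is among the most rhythmic in many tissues. Its signal was 117, 131, 115 and 88.7 on the ad libitum arrays, 251, 192, 154, 117 and 220.3 on the calorie restricted arrays and 524, 373, 656, 797 and 427 on the leptin arrays. Every leptin value was above every other ob/ob value, and 4 of the 5 restricted values were above the fed range. The change was 1.44 ± 0.23 (adjusted p = 0.00653). It was 2.21 with leptin and 0.67 with calorie restriction, which alone did not pass (adjusted p = 0.158), and the difference of 1.54 had an interval of 1.03 to 2.05. Another probe set of Dbp was also called, at 1.23. Tef encodes a factor that binds the same DNA site as DBP. Tef signal was 533, 514, 586 and 572 with free feeding, 712, 957, 816, 834 and 781 with calorie restriction and 951, 781, 820.1, 780.1 and 645 with leptin. The fed range lay below all treated values. The rise of 0.54 ± 0.09 (adjusted p = 0.01) was nearly the same in both groups, 0.56 and 0.52. The third factor of this family, Hlf, had 126 ± 21.5, 160.1 ± 19.9 and 163 ± 16.7 and did not pass (change 0.36, adjusted p = 0.226), nor did Usp2 (change 0.40, adjusted p = 0.163). Wee1 (0.13), Klf15 (0.06), Nampt (-0.15), Tsc22d3 (-0.05), Marveld1 (-0.10), Lonrf3 (-0.35) and Rgs16 (-0.49) were not called either, with adjusted p-values of at least 0.519.

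**Figure D3:**
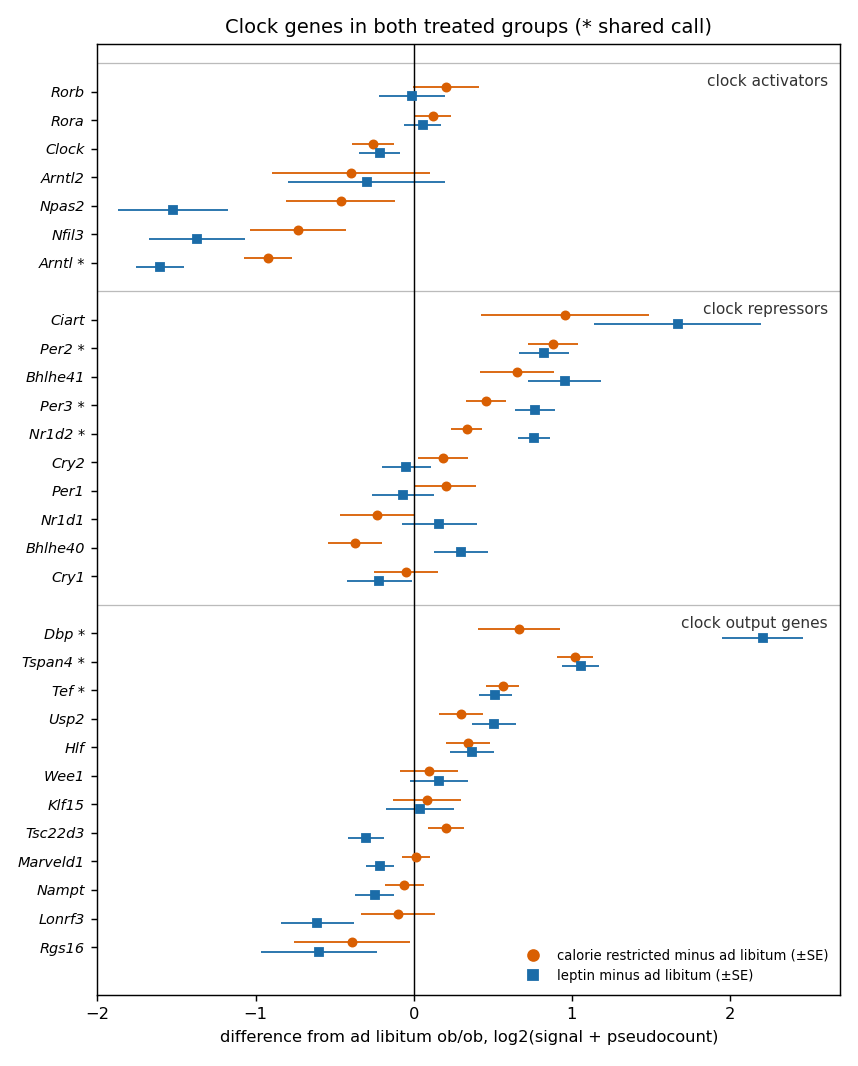
Log2 change from the ad libitum group with calorie restriction (circles) and with leptin (squares), with standard errors, for every tested clock gene by role; an asterisk marks the genes called for the mean of the groups. Arntl lies to the left of 0 in both groups, Per2, Per3, Nr1d2, Dbp, Tef and Tspan4 lie to the right, and Dbp and Arntl are further from 0 with leptin.

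The promoters of the called genes were searched for the DNA letters through which these factors act. The window was the 250 bases before the start of each transcript in a RefSeq table (build GRCm38.p6), and 39 of the 48 higher genes and 44 of the 52 lower genes had an entry. The E-box CACGTG, which ARNTL and CLOCK bind, and the D-box TTANNTAA, which DBP, TEF and NFIL3 bind, read the same on both strands. An E-box stood in 3 of 54 promoters of the higher genes (5.56%), in 7 of 59 of the lower genes (11.9%) and in 6.02% of all 32851 promoters. A D-box stood in 2 of 54 (3.7%), 4 of 59 (6.78%) and 5.43%. The 3 E-box promoters of the higher genes were both promoters of Tef and 1 of the promoters of Tspan4. In the lower genes the E-box stood in promoters of Otud1, Slc20a1, Ak4, Abcc4, B3galt2, Gm5113 and 2310057M21Rik, and the D-box in 3 promoters of Ak4 and that of Ccn1. The shares of the higher genes were below those of all promoters, so nothing about the called genes is read from them, and the stretches of the clock genes are shown as examples of the letters. The 2 D-box promoters of the higher genes were the upstream promoter of Tef and that of Per3, which held a pair of D-boxes. The E-box lay 127 and 138 bases upstream of the Tef starts and 51 bases upstream of that of Tspan4. The D-boxes of Per3 lay 205 and 158 bases upstream. These stretches are shown with 30 bases on either side, 5' to 3' on the strand of the gene, with the motif in capitals. They lie upstream of the transcribed part at chr15:81802516-81802581 and chr15:81811246-81811311 (Tef, plus strand), chr7:141476299-141476364 (Tspan4, plus strand) and chr4:151044786-151044900 (Per3, minus strand).
Tef promoter 1: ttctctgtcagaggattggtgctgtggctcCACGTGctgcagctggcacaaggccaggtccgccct
Tef promoter 2: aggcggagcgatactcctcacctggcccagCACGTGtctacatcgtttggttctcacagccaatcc
Tspan4 promoter 2: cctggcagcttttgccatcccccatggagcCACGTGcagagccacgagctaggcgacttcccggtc
Per3 promoter 1: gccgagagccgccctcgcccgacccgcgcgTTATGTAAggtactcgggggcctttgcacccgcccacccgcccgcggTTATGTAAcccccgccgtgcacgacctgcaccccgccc
The windows of Arntl, Dbp and Nr1d2 did not hold an E-box or a D-box, which says only that these letters are not in this stretch. A match describes the letters and not a bound site.

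Few genes of fatty acid use were called over both groups, and those that were rose more with calorie restriction. Of 23 tested PPAR-alpha responsive genes 2, Angptl4 and Ucp3, were called higher and 0 lower, beside 0.359% and 0.389% of all genes tested. The list had a median change of 0.18. By group the median was 0.44 with calorie restriction, where 12 were called higher in their own comparison (2.46% of all genes tested), and 0.02 with leptin, where 0 were. Angptl4 encodes a secreted inhibitor of lipoprotein lipase. Its signal was 112, 81.1, 126 and 112 on the ad libitum arrays, 557, 663, 659.6, 813 and 435 on the calorie restricted arrays and 312, 252, 270.1, 189 and 97.1 on the leptin arrays. All restricted values and 4 of 5 leptin values were above the fed range, and leptin array 5 was within it. The change was 1.70 ± 0.26 (adjusted p = 0.00543), with 2.47 under calorie restriction and 0.93 with leptin (adjusted p = 0.165 in the leptin group alone). Leptin minus calorie restricted was -1.53 (interval -2.12 to -0.94).

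Ucp3, a carrier of the inner mitochondrial membrane that is raised in muscle by fatty acids, followed the same order. It gave 196, 158, 215 and 168 with free feeding, 543, 729, 628, 849.9 and 556 with calorie restriction and 391, 253, 431, 332 and 169.6 with leptin. Leptin array 5 was again the treated array that fell inside the fed range. The change was 1.25 ± 0.19 (adjusted p = 0.00543), 1.80 with calorie restriction and 0.70 with leptin, and the difference of -1.11 passed the test (adjusted p = 0.00202). Another probe set of Ucp3 was also called. Without leptin array 5, Acot1, Pdk4, Txnip and Eci2 were called as well, with adjusted p-values of 0.000987, 0.0111, 0.0156 and 0.0365. With all arrays Acot1, an acyl-CoA thioesterase, had means of 132 ± 12.6, 546 ± 102 and 189 ± 96.3 (change 1.14, adjusted p = 0.107). Pdk4, the kinase that closes pyruvate dehydrogenase, had 2946 ± 476, 5355 ± 756 and 3756 ± 1244 (change 0.57, adjusted p = 0.229).

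In the list of triacylglycerol synthesis, droplets and lipolysis, 1 of 26 tested genes was called. This was Cidea, a protein of the lipid droplet surface, with 409, 389, 444 and 424 on the ad libitum arrays, 616, 801, 746, 816 and 811 on the calorie restricted arrays and 495, 456, 462, 481 and 401 on the leptin arrays. The restricted values were far above the fed ones, while the leptin values lay at or just above them. The shared rise of 0.49 ± 0.09 (adjusted p = 0.0158) was made of 0.85 with calorie restriction and 0.14 with leptin, and was lost without ad libitum array 1, 2 or 4 (adjusted p up to 0.064). Plin2, the main droplet coat protein of heart, had 529 ± 56.9, 604 ± 79.7 and 694 ± 87.5 and did not pass (adjusted p = 0.302). Of 25 genes of mitochondrial and peroxisomal fatty acid oxidation 0 were called. At an unadjusted p under 0.05, 3 were higher, beside 6.3% of all genes tested. The list median was 0.20 with calorie restriction and -0.04 with leptin.

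Ppargc1a, which encodes PGC-1alpha, was the called gene of 19 coactivators and mitochondrial transcription factors. It gave 564, 538, 607 and 561 on the ad libitum arrays, 659, 630.5, 733, 745 and 894 on the calorie restricted arrays, 915, 1034, 866, 844 and 937 on the leptin arrays and 1152, 1181, 1250 and 1569 on the wild type arrays. The groups did not overlap between fed and treated, and all treated values lay below all wild type values. The rise was 0.52 ± 0.10 (adjusted p = 0.0158), larger with leptin (0.69) than with calorie restriction (0.36; difference 0.33, interval 0.12 to 0.55). The treated groups were 0.64 log2 units below wild type (adjusted p = 0.00425), and fed ob/ob mice were 1.17 below it (adjusted p = 0.000104). Which of them lies nearer to wild type is not read as a result, since the call rests on the distance between treated and fed arrays. Another probe set of the gene was called at 0.46, and 3 more had changes of 0.37 to 0.48 without a call. The call was lost without ad libitum array 1, 2 or 4 (adjusted p up to 0.0745). The 68 tested subunits of oxidative phosphorylation held 0 called genes in either direction and 0 at an unadjusted p under 0.05. Their median change was 0.05, beside -0.01 over all genes tested, and 61 of the 68 values were above 0. The 19 genes of the citric acid cycle likewise held 0 called genes and 0 at an unadjusted p under 0.05.

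Bdh1, the mitochondrial enzyme that oxidises the ketone body 3-hydroxybutyrate, was the called gene of 21 in ketone and branched-chain amino acid breakdown. It gave 1755, 1783, 2154 and 1937 with free feeding, 939, 592, 693, 909.8 and 735 with calorie restriction and 1817, 1697, 1602, 1812 and 1459 with leptin. The restricted values were far below all others, and 3 of the 5 leptin values were below the fed range of 1755 to 2154. Bdh1 fell by 0.75 ± 0.11 (adjusted p = 0.00429), by 1.31 with calorie restriction and by 0.18 with leptin (adjusted p = 0.531 in that group alone). Another probe set fell by 1.47 and was also called.

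**Figure D4:**
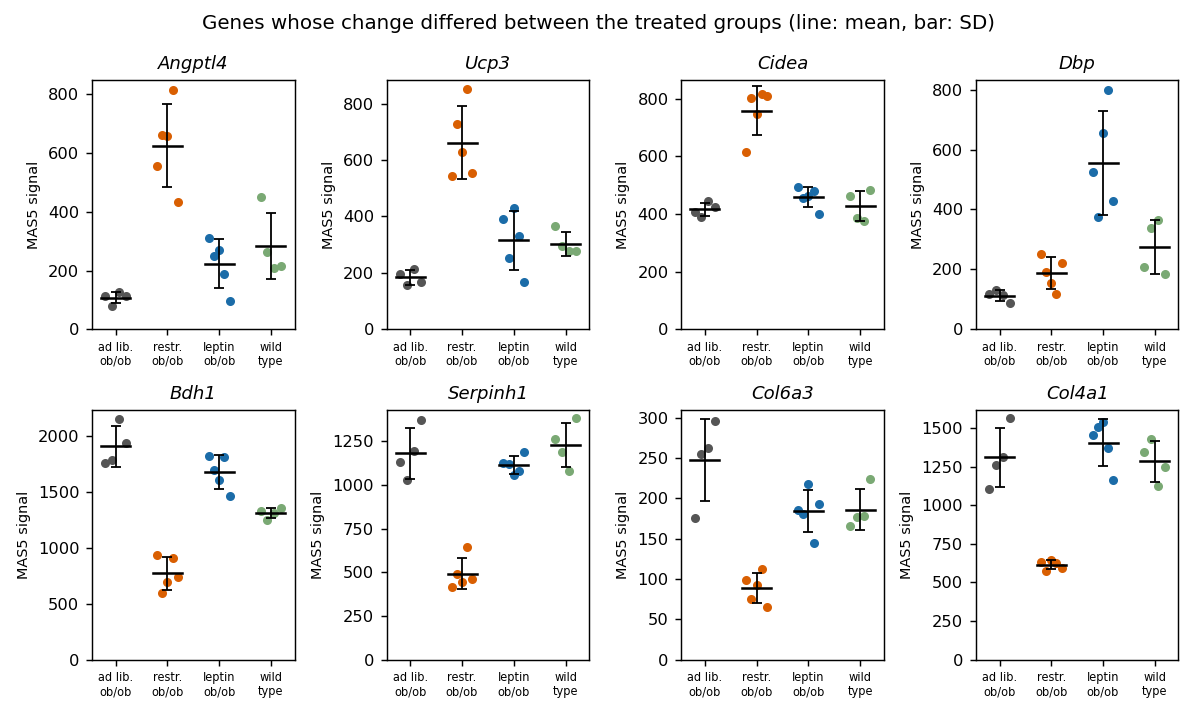
MAS5 signal on each array (points) with group mean (line) and SD (bar) for 8 genes that differed between the leptin and calorie restricted groups. In Angptl4, Ucp3, Cidea, Bdh1, Serpinh1, Col6a3 and Col4a1 the calorie restricted points are furthest from the ad libitum points, and in Dbp the leptin points are.

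Matrix genes that passed the test were lower in the treated mice, most of them mainly with calorie restriction. Of 58 tested matrix genes 5 fell in the mean of the groups and 0 rose, beside 0.389% and 0.359% of all genes tested. Col4a1 was called with opposite signs. Without calorie restricted arrays 2 and 3 the count of falls was 6. The 5 were Col5a3, Col6a3, Col15a1, Eln and Serpinh1; Eln, elastin, is named here after its values were seen. The list median was -0.24 for the mean of the groups, -0.45 with calorie restriction and 0.04 with leptin, and 32 of the 58 were called higher with leptin than with calorie restriction in the direct comparison, beside 7.91% of all genes tested. Serpinh1, the collagen chaperone HSP47, gave 1130, 1030, 1193 and 1375 on the ad libitum arrays, 419, 491, 446, 644 and 461 on the calorie restricted arrays and 1126, 1123, 1059, 1083 and 1192 on the leptin arrays. The leptin values were inside the fed range. The shared fall of Serpinh1, 0.67 ± 0.10 (adjusted p = 0.00543), thus came from -1.26 with calorie restriction and -0.08 with leptin. Another probe set of Serpinh1 had -1.28 with calorie restriction and 0.03 with leptin, so opposite signs, and was not called. Col15a1, a collagen of the zone under basement membranes, had means of 229.8 ± 52.3, 85.9 ± 18.2 and 152 ± 18.9 in the fed, restricted and leptin groups (change -0.96 ± 0.14, adjusted p = 0.00505). Col6a3, a chain of type VI collagen, had 247 ± 50.8, 88.9 ± 18.8 and 184 ± 26.6 (change -0.91 ± 0.15, adjusted p = 0.00726, and 0.0546 without ad libitum array 4). Both were lower in the restricted than in the leptin group, by 0.81 and 1.02. Elastin changed by -0.55 with calorie restriction and -0.67 with leptin (adjusted p = 0.0363), and Col5a3 by nearly equal amounts, as given above.

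Smoc2, Cnn2, Asap2 and Itgb6, called genes outside the matrix list, were also lower with calorie restriction than with leptin, a difference for which Smoc2, Cnn2 and Asap2 were named. Smoc2, a matrix-associated protein, had 479 ± 28.7, 251 ± 29.3 and 461 ± 56.7, and Cnn2, the actin-binding protein calponin 2, had 393 ± 14.8, 214 ± 14 and 365 ± 39.7. Their shared falls of 0.49 and 0.49 (adjusted p = 0.0158 and 0.00767) rested on calorie restriction, since the change with leptin was -0.06 and -0.11. Asap2, which controls small GTPases, was alike by the probe set that stood for it (-0.77 with calorie restriction and -0.13 with leptin). Another probe set of Asap2 had -0.52 with calorie restriction and a larger fall of -0.74 with leptin, and was not called. Another probe set of Smoc2 was called when every probe set was tested, with -0.93 under calorie restriction and -0.32 with leptin. Itgb6, an integrin chain that can activate TGF-beta, had 61.7 ± 31.9, 9.83 ± 6.86 and 34.8 ± 11.6, and fell by 1.43 ± 0.29 (adjusted p = 0.0309). Its 2 tested probe sets were both called when every probe set was tested. Smoc2 was not called without ad libitum array 1 or 4 (adjusted p up to 0.0745), Cnn2 without array 4 (0.0546) and Asap2 without any 1 of the 4 (up to 0.106). Itgb6 was lost without ad libitum array 2, 3 or 4, calorie restricted array 3 or leptin array 1 or 3 (up to 0.138). Fibroblast markers moved with these genes. The summed signal of 14 was 11720 to 12280 on the ad libitum arrays, 8935 to 11440 on the calorie restricted and 11770 to 14050 on the leptin arrays, and 9 of the 14 were called lower with calorie restriction in its own comparison (2.96% of all genes tested). Their part in the matrix results was not tested.

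Genes of cardiac load and striated muscle were few. Abra (STARS), an actin-binding protein of striated muscle, gave 659.7, 412, 629 and 564 with free feeding, 237, 178, 203, 316 and 216 with calorie restriction and 298, 351, 301, 359 and 489 with leptin. Leptin array 5 was the treated array within the fed range. Abra fell by 0.97 ± 0.15 (adjusted p = 0.00653). Ankrd23, an ankyrin repeat protein of the sarcomere, had 1523 ± 291, 749.5 ± 25.6 and 1194 ± 183 and fell by 0.67 ± 0.12 (adjusted p = 0.0122, up to 0.0745 without ad libitum array 1, 3 or 4). Ankrd23 was the called gene of 19 load-responsive genes. The natriuretic peptide genes were not called. Nppb had 2407 ± 587, 645 ± 255 and 1915 ± 837 (change -1.19, adjusted p = 0.102, and 0.0475 without leptin array 5). Nppa had 860.0 ± 310.1, 3014 ± 2408 and 1699 ± 492 (change 1.25, adjusted p = 0.204), with 5724 and 5566 on the 2 arrays of high atrial signal. The myosin heavy chain genes Myh6 (0.06, adjusted p = 0.841) and Myh7 (0.64, adjusted p = 0.463) did not pass either.

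Of 30 tested ion channel subunits 2 fell (1 without calorie restricted arrays 2 and 3) and 0 rose. Over all genes tested 0.389% fell and 0.359% rose. Kcna5, the Kv1.5 potassium channel of repolarising currents, gave 405, 408, 421 and 371 on the ad libitum arrays, 298, 279, 283, 324 and 299 on the calorie restricted arrays and 221, 255, 224, 337 and 277 on the leptin arrays. All treated values were below all fed values. It fell by 0.52 ± 0.11 (adjusted p = 0.0299), by 0.43 with calorie restriction and 0.62 with leptin. Cacng6, a calcium channel gamma subunit, had 48.6 ± 7.5, 40.8 ± 9.92 and 21.3 ± 3.69, a fall of 0.64 ± 0.14 (adjusted p = 0.0426) that was larger with leptin by 0.78 (adjusted p = 0.00262). The median of the list was -0.02 with calorie restriction and -0.22 with leptin. Kcna5 was called in 6 of the 14 fits with 1 array left out (adjusted p up to 0.12; lost without any 1 ad libitum array, calorie restricted array 2 or 3, or leptin array 1 or 2). Cacng6 was called in 3 of them (up to 0.156), those without calorie restricted array 2 or 4 or leptin array 5.

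Among insulin and IGF signalling genes, 1 of 23 rose and 1 fell, beside 0.359% and 0.389% of all genes tested. Igf1r, the receptor of insulin-like growth factor 1, gave 193, 224, 196 and 181 on the ad libitum arrays, 251, 223, 227, 242 and 248 on the calorie restricted arrays and 285, 346, 348, 285 and 317 on the leptin arrays. The leptin values were the highest, and 4 of the 5 restricted values exceeded the fed range. Its rise of 0.46 ± 0.08 (adjusted p = 0.0158) was 0.66 with leptin and 0.26 with calorie restriction. Its 4 other probe sets had changes of 0.0045 to 0.34 and were not called. Grb10, an adapter that dampens the insulin and IGF1 receptors, had 860.5 ± 92.7, 579 ± 62.8 and 732 ± 25.6 and fell by 0.40 ± 0.08 (adjusted p = 0.0277). Other probe sets of Grb10 changed by -0.21 and -0.36 and were not called. Both calls were lost without ad libitum array 1, 3 or 4 (adjusted p up to 0.0875 for Igf1r and 0.126 for Grb10). The mTORC1 list of 16 genes held 0 called genes. At an unadjusted p under 0.05 the list had 1 higher and 3 lower, beside 6.3% and 6.09% of all genes tested. Its member Ddit4, an inhibitor of mTORC1, had 1622 ± 372, 1234 ± 462 and 547 ± 185 (change -1.01, adjusted p = 0.0534; 0.019 without calorie restricted array 5 and 0.025 without leptin array 5).

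The hypoxia, chaperone, glucocorticoid and immediate early lists gave 1 or 2 calls each. Egln3, an oxygen-sensing prolyl hydroxylase that is itself a target of hypoxia-inducible factors, gave 929, 1172, 1307 and 1094 on the ad libitum arrays, 424, 510.3, 417, 524 and 587 on the calorie restricted arrays and 734, 601, 563, 1159 and 586 on the leptin arrays. Leptin array 4 stood within the fed range and the other 9 treated arrays below it. Egln3 fell by 0.93 ± 0.18 (adjusted p = 0.0212, up to 0.107 without ad libitum array 2, 3 or 4), and its other probe set was also called. It was the called gene of 20 on the hypoxia list, which held 0 without calorie restricted arrays 2 and 3. Dnajb4, a heat shock protein of the DNAJ family, had 1629 ± 116, 1191 ± 32.2 and 1443 ± 102 and fell by 0.31 ± 0.06 (adjusted p = 0.0309). With Serpinh1 it made up the 2 falls among 36 chaperone genes, of which 0 rose (1 fall without calorie restricted arrays 2 and 3). Over all genes tested 0.389% fell and 0.359% rose. Mt1, a metallothionein induced by metals and glucocorticoids, rose by 0.49 ± 0.11 (adjusted p = 0.0426), from 2874 ± 137 to 3845 ± 589 and 4308 ± 731, without overlap. It was the called gene of 20 on the glucocorticoid list, where Fkbp5 had 379 ± 60.5, 556 ± 87.6 and 442 ± 72.2 (adjusted p = 0.258). Klf10, a zinc finger repressor induced by TGF-beta, rose by 0.66 ± 0.14 (adjusted p = 0.0384), and Ccn1, a matricellular immediate early gene, fell by 0.49 ± 0.10 (adjusted p = 0.036), out of 25 immediate early genes. Without calorie restricted arrays 2 and 3 the glucocorticoid and immediate early lists held 0 called genes. These 4 calls were lost in most of the 14 fits with 1 array left out. Dnajb4 was called in 5, those without calorie restricted array 1 or 4 or leptin array 2, 4 or 5, and Ccn1 in 5, those without ad libitum array 2, calorie restricted array 4 or leptin array 2, 4 or 5. Mt1 was called in 3, those without calorie restricted array 1 or 4 or leptin array 5, and Klf10 in 3, those without ad libitum array 3, calorie restricted array 1 or leptin array 5. In the other fits the adjusted p reached 0.152, 0.13, 0.148 and 0.15.

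Several of the genes with the largest changes in both groups had low signals. Clec1b encodes CLEC-2, the platelet receptor of podoplanin. It read 0.563, 12.7, 0.736 and 1.9 on the ad libitum arrays, 16.5, 22.3, 25.4, 19.4 and 39 on the calorie restricted arrays, 23.4, 25.3, 36.1, 11.8 and 23.7 on the leptin arrays and 21.8, 44.8, 23.2 and 19.6 on the wild type arrays. On 3 of the 4 fed arrays the value was under the 5.13 added before taking logs, and on ad libitum array 2 it was above the lowest leptin value. The change of 1.82 ± 0.29 (adjusted p = 0.00701) was 1.84 with calorie restriction and 1.80 with leptin. Of 7 tested platelet and red cell markers Clec1b was the called one, and their median change was 0.0034; the summed signal of the 7 was 709.6 to 832.0 on the ad libitum, 583.1 to 757.3 on the calorie restricted and 646.8 to 877.3 on the leptin arrays. Dixdc1, a component of Wnt signalling, had 54.7 ± 19, 116 ± 22.8 and 116 ± 30.5 and rose by 1.04 ± 0.21 (adjusted p = 0.032). Cys1, a protein of the primary cilium, had 38.1 ± 10, 68.7 ± 15.6 and 76.3 ± 10.7 and rose by 0.86 ± 0.16 (adjusted p = 0.0158). Ifitm1, an interferon-induced membrane protein, had 55.5 ± 23.6, 94.8 ± 17.1 and 131 ± 18.5 and rose by 1.00 ± 0.18 (adjusted p = 0.0158). It was the called gene of 31 interferon responsive genes, whose median change was -0.14. Other probe sets of Dixdc1 both changed by 0.42 and were not called. Over the 45 shared genes named here, 23 had other tested probe sets, 39 in all. The mean change of 38 of these had the same sign, and 8 were called. Among the 38, a probe set each of Per3, Serpinh1, Ccbe1, Dnajb4 and Igf1r had opposite signs in the treated groups. Dixdc1 was called in 6 of the 14 fits with 1 array left out (adjusted p up to 0.143; lost without ad libitum array 1, 3 or 4, calorie restricted array 2 or 3, or leptin array 1, 2 or 4). Cys1 was lost without ad libitum array 2 or 4 (up to 0.0745) and Ifitm1 without ad libitum array 1, 3 or 4 (up to 0.0843).

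On the falling side the same holds for Crybb1, a beta-crystallin, and Mettl11b, a protein methyltransferase. Crybb1 read 95.5, 58.6, 64.6 and 61.1 on the ad libitum arrays, 18.5, 9.38, 4.25, 29.5 and 42.5 on the calorie restricted arrays and 25, 33.6, 34.5, 37.1 and 35.3 on the leptin arrays. Rtn4r, the Nogo receptor, read 98.2, 93.6, 89.4 and 94.2, 58.9, 45.3, 28, 48.4 and 28.8 and 45.9, 70.2, 69, 39.5 and 64.4 in the same order. Otud1, a deubiquitinating enzyme, read 551, 286, 300.1 and 239, 129, 135, 125, 156 and 124 and 94.1, 194, 230.0, 183 and 237. In these 3 genes every treated value was below every fed value. Crybb1 fell by 1.35 ± 0.30 (adjusted p = 0.0443), Rtn4r by 0.90 ± 0.20 (adjusted p = 0.0402) and Otud1 by 1.05 ± 0.22 (adjusted p = 0.032). Mettl11b had 49.2 ± 12, 27.7 ± 7.65 and 18 ± 4.28 and fell by 0.98 ± 0.19 (adjusted p = 0.0225). Tmem150c, a transmembrane protein, had 131 ± 10.7, 84.8 ± 12.1 and 68.6 ± 15.9 and fell by 0.76 ± 0.14 (adjusted p = 0.0158) without overlap. The calls of Crybb1, Rtn4r and Otud1 were each lost without any 1 of the ad libitum arrays (adjusted p up to 0.141, 0.126 and 0.107). Crybb1 was also lost without calorie restricted array 1 or 2 or any 1 leptin array, Rtn4r without calorie restricted array 2, 3 or 5 or leptin array 1, 3 or 4, and Otud1 without calorie restricted array 2, 3 or 5 or leptin array 2. Mettl11b was lost without ad libitum array 1, 3 or 4 (up to 0.105) and Tmem150c without array 2, 3 or 4 (up to 0.0847).

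Sharing a direction did not mean sharing a size. The direct comparison of leptin with calorie restriction called 44 of the 100 genes, beside 13.6% of all genes tested. Of all genes tested, 7.91% were higher and 5.73% lower with leptin. The direct comparison uses no ad libitum array, but the same 10 treated arrays and estimates of spread as the call. Genes of small spread pass both tests more readily, so both shares are given as a description. The change was larger with calorie restriction in 35 of the 44 and larger with leptin in 9. With fewer shared genes to draw on, 23, 27, 20 and 13 were called without ad libitum array 1, 2, 3 and 4, and 27 and 29 without leptin array 1 and without calorie restricted arrays 2 and 3. By point value alone it was larger with calorie restriction in 66 of the 100. The median change of the 48 higher genes was 0.60 with calorie restriction and 0.50 with leptin, and that of the 52 lower genes -0.73 and -0.44. By the probe set that stood for each gene, the change with leptin was in 10 genes less than 1 in 4 of that with calorie restriction. Among them were Bdh1, Serpinh1, Cnn2, Smoc2, Asap2 and Cidea. Dbp, Nr1d2, Arntl, Ppargc1a, Igf1r and Cacng6 were on the other side, with the larger change under leptin.

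Col4a1, a chain of the basement membrane collagen type IV, was the gene called with opposite signs (0.00749% of the genes tested). It gave 1107, 1262, 1310 and 1568 on the ad libitum arrays, 634, 575, 645, 625 and 593 on the calorie restricted arrays and 1456, 1504, 1541, 1370 and 1162 on the leptin arrays. The restricted values stood alone far below the rest, and the leptin and fed values overlapped. The change was -1.08 with calorie restriction and 0.10 with leptin (mean -0.49, adjusted p = 0.022, up to 0.102 without ad libitum array 2, 3 or 4). With all arrays in the fit, the main fibrillar collagens were not called for the mean of the groups, although they fell with calorie restriction. With only the 14 ob/ob arrays in the fit, Col3a1 passed the test of the mean. Its signal on the wild type arrays was 698.5, 775, 578 and 2646. Col3a1 had 818 ± 182, 137 ± 45.8 and 909.9 ± 218 (-2.57 with calorie restriction, adjusted p = 0.000701; 0.14 with leptin). Col1a1 had 217 ± 28, 65.8 ± 19.5 and 237 ± 39.8 (-1.69 with calorie restriction, adjusted p = 0.00675, and 0.11 with leptin). Another probe set of Col1a1 changed by -1.27 with calorie restriction and -0.63 with leptin, and 1 of Col3a1 by -0.96 and -0.0078. Neither was called.

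**Figure D5:**
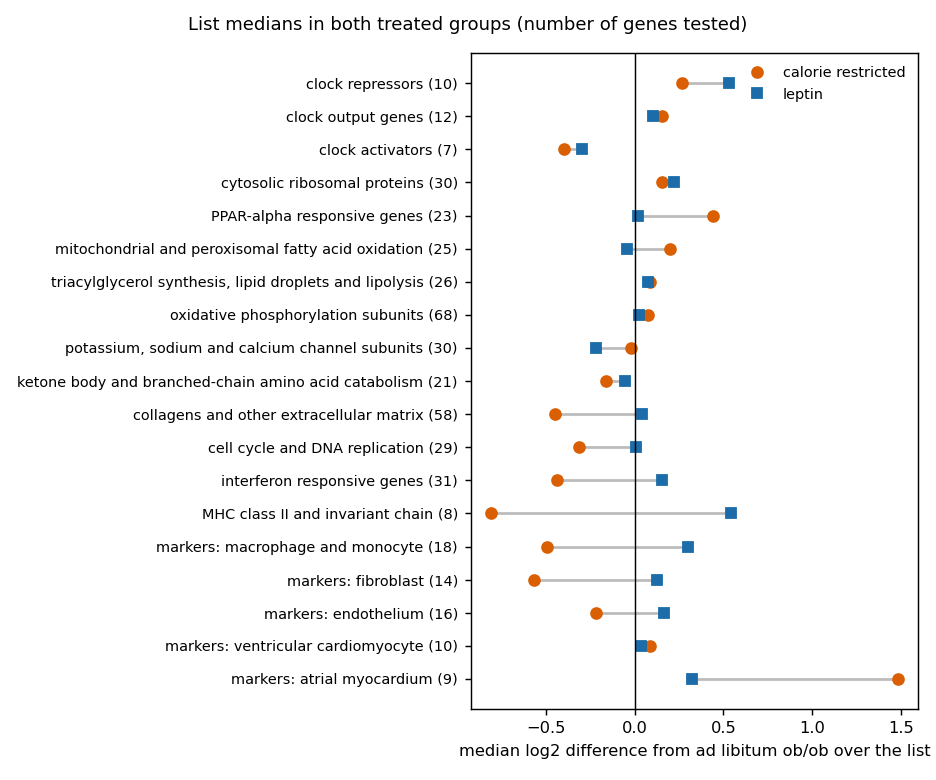
Median log2 change from the ad libitum group over each gene list (number of tested genes in brackets), with calorie restriction (circles) and with leptin (squares). Clock repressors and ribosomal proteins lie above 0 and clock activators below 0 in both groups. The clock activator list includes the repressor Nfil3, and its median is the value of Arntl2 in both groups. The matrix, interferon, MHC class II, macrophage and fibroblast lists lie on opposite sides of 0.

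The plot of list medians sets the groups side by side, both against the same 4 ad libitum arrays. Cytosolic ribosomal proteins had a median of 0.15 with calorie restriction and 0.22 with leptin. At an unadjusted p under 0.05, 18 of 30 were higher and 1 lower, beside 6.3% and 6.09% of all genes tested, although 0 were called. Rps25, the member with the smallest p, had 51.7 ± 6.79, 76.2 ± 6.09 and 69 ± 11.2 (change 0.45 ± 0.10, adjusted p = 0.0565, and as low as 0.0132 in the fits without ad libitum array 1 or leptin array 5). MHC class II genes had medians of -0.81 and 0.55, with H2-Aa, its class II alpha chain, at 464 ± 136, 118 ± 37.5 and 1027 ± 191. Macrophage markers had medians of -0.49 and 0.30, and their summed signal was 4378 to 5569 on the ad libitum, 3045 to 4375 on the calorie restricted and 5435 to 7479 on the leptin arrays. Of the 8 MHC class II genes and the 18 macrophage markers 0 were called for the mean of the groups. The cold-inducible RNA-binding protein gene Cirbp also split, with 272 ± 34.2, 763 ± 142 and 183 ± 44.7 (1.46 with calorie restriction, adjusted p = 0.000132; -0.58 with leptin, adjusted p = 0.127). The 9 atrial markers had medians of 1.48 and 0.32 and 0 called members.

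Wild type hearts are a reference for the level of a gene. Between both treated groups and wild type 198 genes (1.48%) were called, 90 higher and 108 lower, and between fed ob/ob and wild type 40 (0.299%). The members were chosen for a distance between treated and fed arrays, so which of these lies nearer to wild type is not read as a result. The wild type mean was 224 ± 46.5 for Tmem100, 20.9 ± 3.15 for Cacng6 and 542 ± 142 for Egln3 (SD, n = 4). In Arntl the mean of the treated groups was below wild type by 0.61 (limma adjusted p = 0.0326). In Cnn2, Smoc2 and Serpinh1 this mean was also below wild type (by 0.49, 0.41 and 0.73, adjusted p = 0.00703, 0.0303 and 0.00383). In that order, the restricted means were 214, 251 and 492, the leptin means 365, 461 and 1116 and the wild type means 395, 453 and 1228. The leptin mean of Smoc2 was thus not below wild type. Lepr, Fbxo32 and Hspa1b were not called by the probe set that stood for each. Lepr, the leptin receptor, had 30.9 ± 8.67, 31.9 ± 9.19 and 29.9 ± 10.8, and Fbxo32, a ubiquitin ligase of muscle wasting, 460.3 ± 44.4, 577 ± 121 and 640.2 ± 158 (adjusted p = 0.993 and 0.287). A further probe set of Fbxo32 was called when every probe set was tested, at 0.85 (adjusted p = 0.0459; 0.86 with calorie restriction and 0.84 with leptin). Hspa1b, an inducible heat shock protein, had 92.8 ± 43.3, 100.4 ± 20.5 and 105 ± 28.3 (adjusted p = 0.775).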

How the data were processed

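Ventricular myocardium was measured on Affymetrix arrays, with 1 array for each sample. Total RNA of minced heart tissue was labelled as biotin cRNA, per the labels' protocols. The deposited table holds linear intensities. The submitters' processing notes name MAS5; no version or setting of it is given in the sources used here. Checked on the table, each array's trimmed mean was 100.001, so a change in the total amount of RNA would not show. Of 45101 probe sets, 64 were controls, 34945 had 1 gene symbol, 932 had several and 9160 were not listed. Entrez identifiers of 34741 were found in RefSeq (GRCm38.p6), and 0 symbols changed. Each of 18193 genes was represented by its probe set of highest mean. A set whose name ends in _s_at or _x_at, as for Angptl4, Dbp, Mt1 and Ccn1, can match several transcripts. Signals were taken as log2(signal + 5.13), 5.13 being the 20th percentile of all signals, which understates changes of dim genes. Genes with a mean under the 40th percentile (4.36) were left out. The number of columns not used was 0, and 0 pairs of arrays held identical values.

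R 4.3.3 and limma 3.58.1 were used. A model with 1 coefficient per group was fitted to all 18 arrays, with empirical Bayes moderation and two-sided tests. The contrast was the mean of the calorie restricted and leptin groups minus ad libitum, and Benjamini-Hochberg adjustment ran over the 13359 genes tested. These steps were first tested on simulated data. Same-numbered arrays of different groups did not deviate together (13 pairs, correlations -0.17 to 0.08), so the numbers were not used as pairs. Named genes were, in each direction, the 12 shared genes with the largest smaller change (clone names left out), up to 4 members of each described list, all clock genes, 19 chosen genes (metabolism, load, stress), and genes of opposite or most unequal change. Lists are described by counts and medians, with no test of a list. The comparison, lists and naming rule were chosen with earlier results of these data known. The alternatives were other pseudocounts, filters, normalization, moderation and samples in the fit, every probe set tested on its own, atrial signal as a covariate, a replicate block, and each array left out in turn. Promoter sequences are RefSeq's.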

Additional observations from a re-analysis of the deposited data

Results flagged for a closer look

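Of the 89 named genes, 38 differed between leptin and calorie restriction by the direct test at a limma adjusted p under 0.05, beside 13.6% of all genes tested. The count is a description, since 6 of these genes were named for this difference and Col4a1 for opposite signs. The values are leptin minus calorie restricted on the log2 scale, for the probe set that stood for each gene. Leptin was higher in 24. Immune and matrix genes included H2-Aa at 3.09, Col3a1 at 2.71, Col1a1 at 1.8, Serpinh1 at 1.19, Col4a1 at 1.18, Col6a3 at 1.02, Smoc2 at 0.862 and Col15a1 at 0.807. Cardiac genes included Nppb at 1.61, Myh7 at 1.23, Ankrd23 at 0.655 and Abra at 0.637. Clock genes included Dbp at 1.54, Bhlhe40 at 0.674 and Nr1d2 at 0.426. The others were Itgb6 (1.49), Bdh1 (1.13), Cnn2 (0.754), Pfkl (0.642), Asap2 (0.64), Igf1r (0.398), Grb10 (0.342), Ppargc1a (0.333) and Dnajb4 (0.273).

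Leptin was lower in 14. They were Cirbp at -2.04, the fuel genes Acot1 (-1.71), Angptl4 (-1.53), Ucp3 (-1.11), Cidea (-0.713) and Eci2 (-0.543), the clock activators Npas2 (-1.06) and Arntl (-0.684), the glucocorticoid target Tsc22d3 (-0.509), Ddit4 (-1.17) and Eif4ebp1 (-0.468) of the mTORC1 pathway, and Cacng6 (-0.777), Angpt1 (-0.503) and Tmem100 (-0.446).

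In 14 of 267 groups of 4 or 5 arrays 1 array stood far from the rest, by a gap of more than Dixon's limit as a share of the group's range; chance alone marks about 1 in 20 groups. Among ad libitum arrays the share was 0.913 for Ccbe1 on array 3, 0.914 for Per3 and 0.897 for Ciart on array 4, and 0.867 for Nppb and 0.859 for Per1 on array 2. Among calorie restricted arrays it was 0.742 for Fkbp5 and 0.744 for Lepr on array 1, and 0.831 for Ddit4 and 0.812 for Nppb on array 5. Among leptin arrays it was 0.749 for Crybb1 and 0.716 for Otud1 on array 1, 0.745 for Per1 on array 2, and 0.87 for H2-Aa and 0.815 for Myh7 on array 4.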

How the results depend on the processing

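With all arrays, 48 genes were higher and 52 lower in the mean of the treated groups with the same sign in each, 44 of them also differed between the treatments, and 98 genes separated the treated from the ad libitum arrays. With another pseudocount (1 or 16), quantile normalization or every probe set tested, these counts stayed within 1.5 times, and quantile normalization kept 46 of the 48 and 47 of the 52 genes while moving the median of all genes from -0.0118 to -0.00587. With no filter on low signal 29, 27 and 28 genes were called (higher, lower and differing between treatments). With the filter at the 60th percentile 77 were higher and 69 differed, and with trend and robust moderation 82 were higher and 70 differed. With only the 14 ob/ob arrays in the fit 31 were lower. With the 10 treated arrays as 1 group 8 were higher and 7 lower. With atrial marker signal as a covariate the counts were 20, 19 and 21, with the replicate block 22, 22 and 21, and without calorie restricted arrays 2 and 3 24 were higher and 29 differed. Of the genes called in all arrays the atrial covariate kept 19 and 17, and the replicate block 21 and 21. The cause of these losses was not tested. Leaving out 1 array at a time gave 14 to 67 genes higher, 10 to 57 lower, 13 to 56 differing and 110 to 234 separated. Over all alternatives for the 89 named genes 1965 values kept their direction and side of the threshold, 276 lost a call, 33 gained one and 28 values of 9 genes changed sign. The 28 include 0 called values, and the 9 genes lay near 0 with adjusted p of at least 0.815 with all arrays. Lepr turned to 0.026 with quantile normalization, 0.028 with the replicate block and 0.017 without calorie restricted arrays 2 and 3, Myh6 to -0.0085 with quantile normalization, Cry2 to -0.038 and -0.032 with the atrial covariate and without those arrays, Nr1d1 to 0.026 and 0.069 with the covariate and the block, Rorb to -0.0019 with the covariate and Bhlhe40 to 0.047 with the block. With 1 array left out the changes ran from -0.14 to 0.11 for Lepr, -0.23 to 0.11 for Nr1d1, -0.088 to 0.011 for Bhlhe40, -0.028 to 0.16 for Klf15, -0.15 to 0.022 for Tsc22d3, -0.037 to 0.24 for Wee1 and -0.033 to 0.24 for Rorb. With 4 ad libitum arrays, the number of samples limits the precision, and with no detection calls used here, low signals such as those of Clec1b have no stated background.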

Other observations

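Other genes called for the mean of both treated groups are described here after their values were seen. Among enzymes that act on small molecules and lipids, Fmo2, a flavin-containing monooxygenase, rose by 0.62 (limma adjusted p = 0.00429; 0.89 with calorie restriction and 0.34 with leptin), Inmt, which methylates indole amines, by 0.92 (1.38 and 0.45), and Hsd17b11, an enzyme found on lipid droplets, by 0.63 (0.96 and 0.31). In these 3 genes the rise was larger with calorie restriction by the direct test (adjusted p = 0.0011, 0.000639 and 0.00154). Ephx1 (0.35 and 0.32), Aldh9a1 (0.46 and 0.51) and the drug exporter Abcg2 (0.35 and 0.49) rose by closer amounts. Upp1, uridine phosphorylase, rose by 0.92 (adjusted p = 0.0399) and more with leptin (1.34) than with calorie restriction (0.51). Ak4, a mitochondrial adenylate kinase, fell by 0.67 (adjusted p = 0.00237; -0.82 and -0.53), from a mean signal of 354 on the ad libitum arrays to 199 and 245, and Ckb, the brain isoform of creatine kinase, by 0.65 (adjusted p = 0.0122; -0.89 and -0.41). The laminin receptor chain Itga6 fell by 0.57 (adjusted p = 0.0299), with -0.95 under calorie restriction and -0.18 with leptin (direct test, adjusted p = 0.00066). Slc20a1, a phosphate transporter, changed by -0.50 and -0.50, and Pla2g5, a secreted phospholipase A2, by -0.34 and -0.45.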
